A study of Homo sapiens with 30 samples.

Results

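The genes described here are the BRCA, Fanconi anemia and homologous recombination repair genes, a list of 42 symbols chosen by name, among 22465 genes that had a probe set of their own on the arrays. The list was chosen with earlier results of these data known, so its shares beside those of all genes are a description and not an independent test. Of the 42, 37 were measured on a probe set annotated to 1 gene symbol, and *BRCA2*, *RBBP8*, *FANCA*, *FANCD2* and *RAD54B* were not analysed here. They were followed in 5 established human cell lines, the colorectal cancer lines HCT-116, HT-29 and KM12C, the natural killer line NK-92 and TALL-104, which the labels call CD8+ T cells and which is of leukemic origin. Each line received elraglusib (9-ING-41, a small-molecule inhibitor of glycogen synthase kinase 3) for 24 h or DMSO, the solvent used as vehicle control. The labels and the study's figure captions for these arrays give the dose as 1 µM, whereas its text describes it as the IC50 of the cells. The dose behind each response is therefore not settled. Each of the 10 groups held 3 arrays of the Human Transcriptome Array type, 30 in all, and the labels give no other treatment or engineered allele for any of them. By the study's methods the media of NK-92 and TALL-104 held added IL-2, a cytokine, and differed from those of the colorectal lines. Cell type and culture medium therefore cannot be told apart where these lines are compared with the colorectal ones. The labels call the 3 arrays biological replicates without saying that they came from separate cultures, so the p-values below measure only the spread between these arrays, and their small number limits the precision.

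Homologous recombination repairs a DNA double-strand break by copying an intact sister chromatid. The broken ends are sensed and resected, BRCA1 with its partner BARD1 brings PALB2 and BRCA2 to the resected DNA, and BRCA2 with further mediator proteins readies that DNA for the search for the sister. The Fanconi anemia proteins unhook DNA interstrand crosslinks and hand the break to the same machinery. The BLM complex and structure-specific nucleases then resolve the joined molecules, while ATM, ATR, CHEK1 and CHEK2 hold the cell cycle. Cells use this pathway in S and G2 phase, and many of its genes are transcribed mainly in cycling cells.

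Every value below is a gene-level signal on a log2 scale as deposited, in which 1 unit is a 2-fold difference, and every test compares arrays for 1 gene. Levels of different genes are set side by side only for the cell type markers and *RMI2*, as a rough description. The array labelled TALL-104 DMSO replicate 2 went against its label. Its correlation with the NK-92 arrays was 0.988 to 0.993 and with the other TALL-104 arrays 0.859 to 0.871, whereas those 5 correlated at 0.983 to 0.994 among themselves. *CD3D*, a T cell receptor chain, read 13.96 and 14.17 on the other DMSO arrays of TALL-104 and 3.70 on this one, and *KLRD1* read 4.14 and 4.15 against 9.45. On *BRCA1* it read 9.77, against 7.96 and 7.96 on its companions and 9.57 to 9.81 on the NK-92 DMSO arrays. Results between groups that use this discordant array are therefore given with and without it, except that some differences of single genes are given from 1 of these fits. The marker levels of TALL-104 are given over its 5 other arrays.

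*EPCAM* and the keratins *KRT8*, *KRT18* and *KRT19* were at 13.91 or higher on average in the 3 colorectal lines and at 6.75 or lower in NK-92 and TALL-104, while *KRT20* was high in HT-29 alone and *CDX2* was between 3.97 and 5.88 in all 5 lines. The natural killer genes *NCAM1*, *KLRD1* and *KLRC1* averaged 12.03, 9.55 and 12.26 in NK-92 and 8.81, 4.18 and 6.00 in TALL-104. *NCR1*, *NCR3* and *NKG7*, also of the natural killer list, were high in both, at 11.29, 15.4 and 17.3 in NK-92. In TALL-104 they averaged 12.05, 14.15 and 16.96. The T cell receptor genes *CD3D* and *CD3G* averaged 14.20 and 16.27 in TALL-104 and 4.36 or lower in the other lines. *CD3E* and *CD247*, also of the T cell list, averaged 14.27 and 9.76 in TALL-104 and 13.3 and 9.46 in NK-92. The CD8 genes were low for a line labelled CD8+, at 6.43 for *CD8A* in TALL-104 against 4.17 to 4.40 elsewhere, and at 3.92 for *CD8B* against 3.63 to 3.68. The B cell gene *CD79A* averaged 15.96 in TALL-104 and 5.37 or lower elsewhere. Elraglusib changed few of these markers, with *KRT19* up by 0.52 in HCT-116, *CDH1*, *VIL1* and *CD14* down (-0.60, -0.76 and -1.27) in HT-29, and 0 of the natural killer, T cell, B cell and fibroblast lists passing in any line (limma), at list medians from -0.11 to 0.23 outside TALL-104.

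Of the 37 genes, 3 fell and 1 rose in HCT-116 cells, 8 fell and 1 rose in HT-29 cells, and 2 fell and none rose in KM12C cells, at a limma adjusted p under 0.05 over all 67528 probe sets. In HCT-116 cells, 0.336% of all probe sets and 0.677% of genes with their own probe set fell, and 0.817% and 1.09% rose, against 8.11% and 2.70% of these repair genes. In HT-29 cells, 3.39% of probe sets and 5.79% of genes fell and 4.62% and 4.06% rose, against 21.6% and 2.70% of the repair genes. In KM12C cells, 0.894% of probe sets and 1.53% of genes fell and 0.603% and 0.361% rose, against 5.41% and 0% of the repair genes. None of them rose in KM12C cells by limma or by the methods' t-test, named there for the study in general and run here with arrays paired by replicate number. Limma had 2 of the 37 higher at an unadjusted p under 0.05, against 7389 of the 67528 probe sets, and the methods' t-test 1. *BARD1* and *BRIP1* fell in all 3 colorectal lines, *BRCA1* passed in HCT-116 and HT-29, and *RAD51C*, a recombination mediator, was the gene that rose in both of those lines. In cultures of mixed cell cycle stage, fewer cells that express a gene and less RNA of it per cell cannot be told apart.

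The median difference over the 37 genes was -0.21 in HCT-116, -0.18 in HT-29 and -0.19 in KM12C cells, and 30, 26 and 27 of them were below 0. Over all genes with their own probe set the medians were 0.02, -0.02 and 0.08. In KM12C cells the median of all probe sets was itself shifted by 0.11, and after quantile scaling the median of the repair genes was -0.16 with 25 of 37 below 0. At the thresholds of the study's methods, a fold change beyond 1.5 and an unadjusted p under 0.05, here from limma, 4 of the 37 were lower in HCT-116 (1.03% of genes), 11 in HT-29 (5.23%) and 6 in KM12C (4.32%). The genes that were higher by the same thresholds numbered 0, 2 and 0, against 1.57%, 3.72% and 1.42% of genes.

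**Figure D1:**
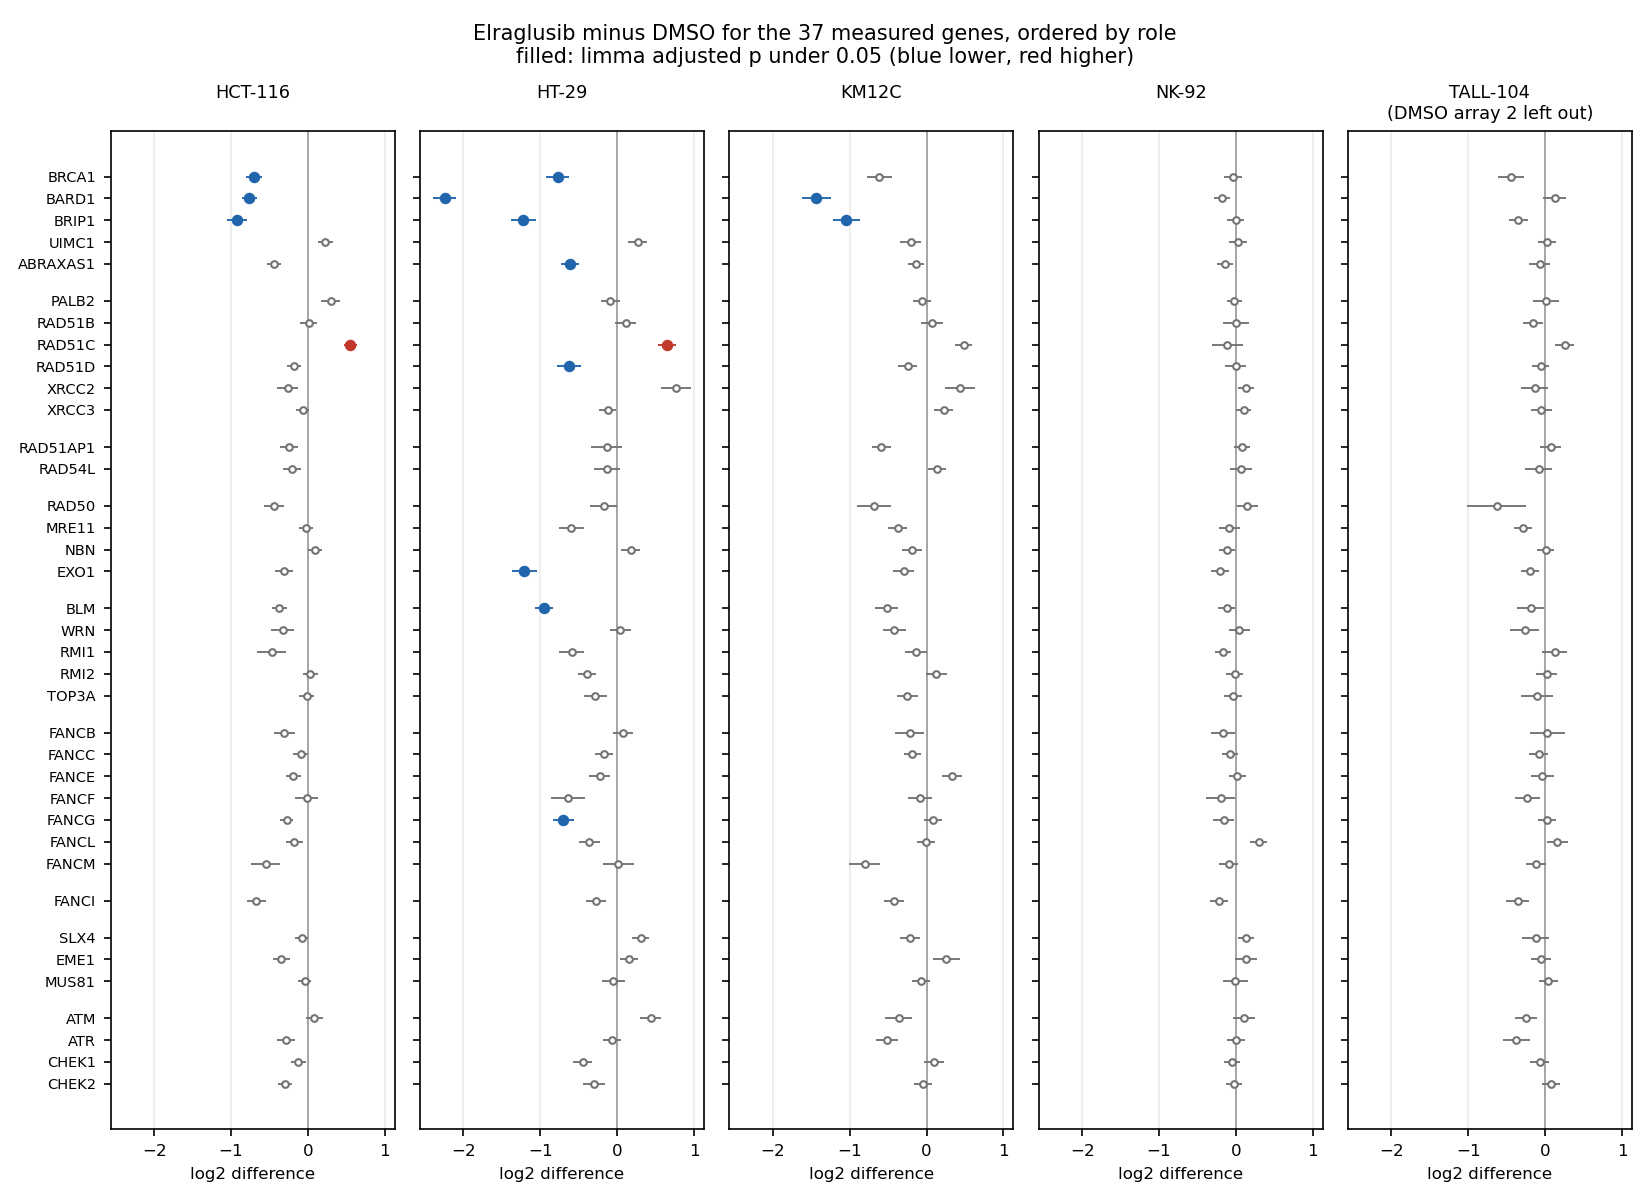
Log2 difference between elraglusib and DMSO arrays (x axis) for the 37 measured genes (rows, grouped by role), 1 panel per cell line, with bars of 1 standard error. Filled points passed the test, and the BRCA1, BARD1 and BRIP1 points lie left of 0 in all 3 colorectal panels, with BARD1 in HT-29 the farthest at -2.25.

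*BRCA1* is a ubiquitin ligase that steers broken ends toward recombination. On the elraglusib arrays of HCT-116 cells it read 8.87, 8.60 and 8.75, and on the DMSO arrays 9.33, 9.53 and 9.46. The groups did not overlap, and *BRCA1* fell by 0.70 ± 0.11 (SE, n = 3 per group, 1.62-fold, limma adjusted p = 0.0354). In HT-29 cells it read 8.95, 9.34 and 9.40 with elraglusib and 9.98, 10.15 and 9.88 with DMSO. These groups did not overlap either, and it fell by 0.77 ± 0.15 (1.71-fold, limma adjusted p = 0.0144). In KM12C cells the readings were 9.05, 9.22 and 8.82 with elraglusib and 9.77, 9.81 and 9.35 with DMSO. The treated arrays were again all lower, but the difference of -0.61 ± 0.17 did not pass (limma adjusted p = 0.115). Without DMSO replicate 3, the lowest control array, it was -0.76 with a limma adjusted p of 0.0281. That was the 1 fit of 6 without 1 array in which it passed. Over the 6 fits the difference ran from -0.76 to -0.51, with limma adjusted p up to 0.362.

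*BARD1* is the obligate partner of BRCA1 in the ligase. In HT-29 cells it read 7.08, 6.99 and 7.45 with elraglusib and 9.36, 9.59 and 9.31 with DMSO. It fell by 2.25 ± 0.15 (4.75-fold, limma adjusted p = 7.8e-05), and this was the largest difference of the 37 genes in any line. In KM12C cells the readings were 8.26, 8.42 and 8.01 against 9.74, 9.94 and 9.31. The fall was 1.43 ± 0.18 (2.70-fold, limma adjusted p = 0.0117), with every treated array below every control. In HCT-116 cells *BARD1* read 8.55, 8.39 and 8.44 against 9.26, 9.31 and 9.09. It fell by 0.76 ± 0.10 (1.69-fold, limma adjusted p = 0.0236), again with no overlap.

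*BRIP1*, a helicase that binds the BRCT repeats of BRCA1 and is also known as FANCJ, moved in the same direction. In HCT-116 cells it read 10.48, 10.14 and 10.45 with elraglusib against 11.16, 11.44 and 11.24 with DMSO. It fell by 0.92 ± 0.13 (1.90-fold, limma adjusted p = 0.0259). In HT-29 cells the readings were 8.83, 9.10 and 9.33 against 10.27, 10.50 and 10.15. The fall was 1.22 ± 0.16 (2.33-fold, limma adjusted p = 0.0019). In KM12C cells they were 9.54, 9.61 and 9.34 against 10.71, 10.75 and 10.17. *BRIP1* fell there by 1.05 ± 0.18 (2.07-fold, limma adjusted p = 0.0312), and the groups were separate in each of the 3 lines.

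The remaining members of the *BRCA1* complexes were *ABRAXAS1*, the scaffold of the BRCA1-A complex, and *UIMC1*, its ubiquitin-binding subunit. *ABRAXAS1* read 7.17, 7.15 and 7.36 with elraglusib and 7.72, 7.92 and 7.87 with DMSO in HT-29 cells. It fell by 0.61 ± 0.12 (1.53-fold, limma adjusted p = 0.0149), and the groups did not overlap. Its differences in HCT-116 and KM12C cells were -0.44 and -0.14, which did not pass. *UIMC1* differed by 0.23, 0.27 and -0.21 in HCT-116, HT-29 and KM12C cells and passed in none of them.

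**Figure D2:**
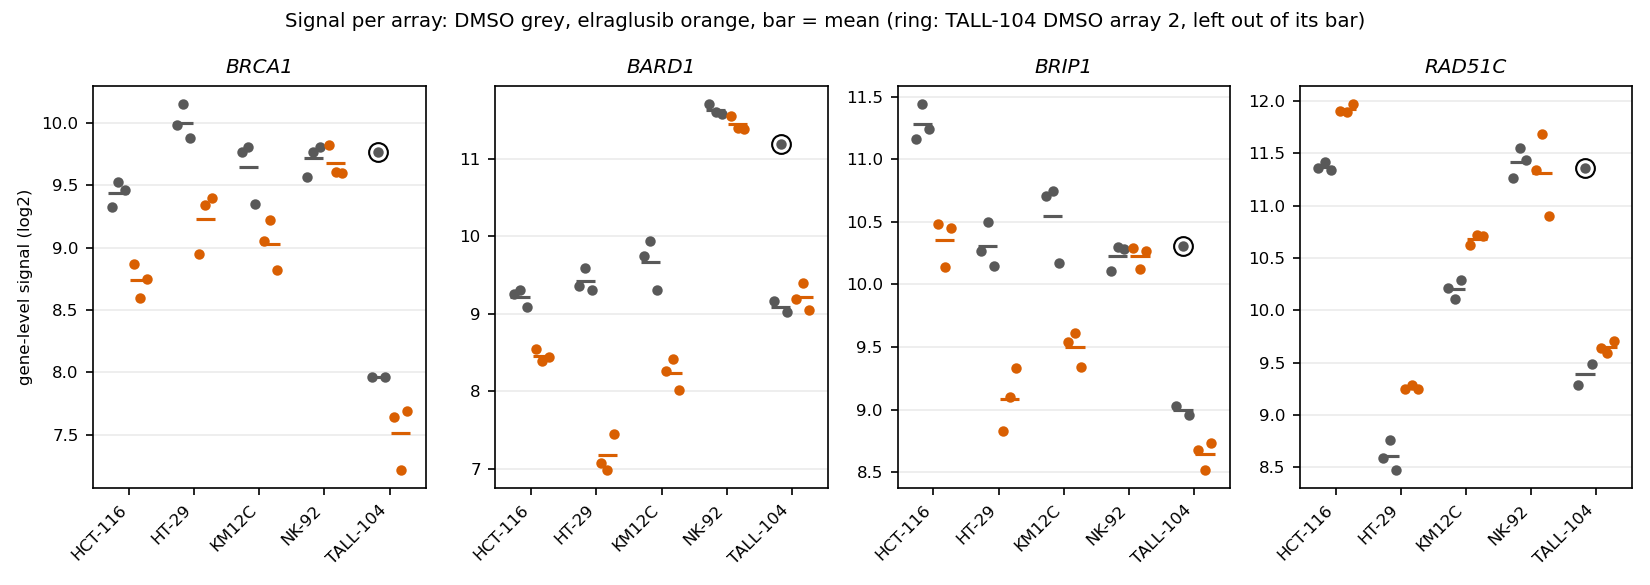
Log2 signal on every array (y axis) of BRCA1, BARD1, BRIP1 and RAD51C in the 5 cell lines (x axis), with DMSO in grey, elraglusib in orange and the group mean as a bar. In the colorectal lines the first 3 genes are lower on all treated arrays and RAD51C is higher on all of them, and the ringed array labelled TALL-104 DMSO replicate 2 lies at the level of the NK-92 arrays.

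Promoter windows of RefSeq (GRCh38.p14, 250 bases before to 50 after the annotated start) were found for 33 of the 37 genes, and were searched on both strands because many of these genes are known to be driven by E2F factors or through cell cycle homology regions. The E2F letters (TTTCCCGC, TTTGGCGC, TTTCGCGC or TTTGCCGC) were in 3 of the 33 windows (9.09%) and in 3.32% of all 35093 windows. The cell cycle homology region letters TTTGAA were in 3 windows (9.09%) against 15.2%, and the CCAAT box letters in 14 (42.4%) against 34.6%. None of these motifs contains another. Among the 9 genes that passed the test in any line, 1 window (11.1%) held the E2F letters and 1 (11.1%) the cell cycle homology region letters. The CCAAT box letters were in 2 of these 9 windows (22.2%). The windows of *EXO1* and *BRIP1* are shown as the 2 in which an E2F or cell cycle homology region match lies in a gene that fell. No test was made, and a match is a description of these letters in the window. The *BRIP1* window is chr17:61863479-61863778 on the minus strand, with its capitals marking the reverse complement of TTTGAA, whose first base lies at -240 from the start. The *EXO1* window is chr1:241847954-241848253 on the plus strand, with its capitals marking TTTCGCGC, whose first base lies at position 5 after the start.
BRIP1: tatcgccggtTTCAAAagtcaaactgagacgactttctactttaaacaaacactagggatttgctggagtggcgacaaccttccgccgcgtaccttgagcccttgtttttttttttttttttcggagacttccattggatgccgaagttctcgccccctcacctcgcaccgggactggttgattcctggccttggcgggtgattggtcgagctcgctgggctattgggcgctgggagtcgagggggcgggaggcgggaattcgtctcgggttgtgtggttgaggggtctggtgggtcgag
EXO1: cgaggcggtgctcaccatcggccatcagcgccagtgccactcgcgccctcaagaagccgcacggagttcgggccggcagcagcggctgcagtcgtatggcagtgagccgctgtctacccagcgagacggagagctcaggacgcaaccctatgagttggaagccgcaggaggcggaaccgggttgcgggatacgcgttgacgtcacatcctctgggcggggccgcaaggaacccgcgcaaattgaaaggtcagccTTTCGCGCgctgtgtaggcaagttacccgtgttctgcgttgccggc

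*PALB2* links BRCA1 to BRCA2. It read 8.68, 8.57 and 8.57 with elraglusib and 8.31, 8.53 and 8.09 with DMSO in HCT-116 cells, where the treated arrays were all higher by a narrow margin. The difference of 0.30 ± 0.13 did not pass (limma adjusted p = 0.388). In HT-29 cells it read 8.63, 8.63 and 8.77 against 8.69, 8.95 and 8.66, and in KM12C cells 8.67, 8.72 and 8.78 against 8.87, 8.85 and 8.62. Those groups overlapped, with differences of -0.09 ± 0.12 and -0.06 ± 0.12 (limma adjusted p = 0.839 and 0.811), and the second became 0.02 after quantile scaling.

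The mediator genes *RAD51B*, *RAD51C*, *RAD51D*, *XRCC2* and *XRCC3*, whose products form 2 complexes, did not move together. *RAD51C*, which sits in both complexes, read 11.91, 11.90 and 11.97 with elraglusib and 11.36, 11.42 and 11.34 with DMSO in HCT-116 cells. It rose by 0.55 ± 0.08 (1.47-fold, limma adjusted p = 0.0340), with the groups far apart. In HT-29 cells the readings were 9.25, 9.29 and 9.25 against 8.59, 8.76 and 8.48. *RAD51C* rose by 0.65 ± 0.12 (1.57-fold, limma adjusted p = 0.0095). In KM12C cells they were 10.63, 10.72 and 10.71 against 10.21, 10.11 and 10.29. The treated arrays were again all higher, and the difference of 0.48 ± 0.11 did not pass (limma adjusted p = 0.0763).

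*RAD51D*, a mediator that bridges RAD51C and XRCC2, fell in HT-29 cells by 0.63 ± 0.15 (1.54-fold, limma adjusted p = 0.0411), and its differences in HCT-116 and KM12C cells were -0.18 and -0.25. *XRCC2* differed in the opposite direction in HT-29 cells. It read 10.69, 11.03 and 11.24 with elraglusib against 10.10, 10.60 and 9.97, groups that did not overlap, but 0.76 ± 0.20 did not pass (limma adjusted p = 0.0516). *RAD51B* and *XRCC3* differed by -0.12 to 0.22 across the 3 colorectal lines. *RAD51AP1*, which stimulates strand invasion, and *RAD54L*, a motor protein that acts at the same step, passed in no line, with differences from -0.59 to 0.14 in the colorectal lines.

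Among the genes of end sensing and resection, *EXO1*, the exonuclease that lengthens the single-stranded tail, fell in HT-29 cells. It read 9.31, 9.44 and 9.83 with elraglusib and 10.72, 10.94 and 10.54 with DMSO. The groups did not overlap, and the fall was 1.21 ± 0.17 (2.31-fold, limma adjusted p = 0.0026). Its differences in HCT-116 and KM12C cells were -0.31 ± 0.12 and -0.30 ± 0.14 and did not pass. *RAD50*, *MRE11* and *NBN* form the complex that first binds a broken end. *RAD50* differed by -0.44, -0.18 and -0.69 in HCT-116, HT-29 and KM12C cells, *MRE11* by -0.02, -0.60 and -0.37, and *NBN* by 0.09, 0.18 and -0.19. None of these passed.

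*BLM* is the helicase that dissolves double Holliday junctions together with the topoisomerase *TOP3A* and the cofactors *RMI1* and *RMI2*. In HT-29 cells *BLM* read 10.05, 10.02 and 10.14 with elraglusib and 10.97, 11.19 and 10.90 with DMSO. The groups did not overlap, and *BLM* fell by 0.95 ± 0.12 (1.93-fold, limma adjusted p = 0.0017). It differed by -0.37 in HCT-116 and -0.52 in KM12C cells, with all treated arrays lower, and did not pass there. *RMI1* differed by -0.59 in HT-29 cells (limma adjusted p = 0.0699), and *TOP3A* by -0.29 to -0.02 across the 3 lines. *RMI2* averaged 4.74 over the 30 arrays, just above the array medians, the lowest of which was 4.23, and differed by 0.03, -0.39 and 0.13. *WRN*, a related helicase with a nuclease activity, differed by -0.33, 0.04 and -0.42 in HCT-116, HT-29 and KM12C cells.

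Of the 7 measured genes of the Fanconi core complex, which places ubiquitin on FANCD2 and FANCI, *FANCG* passed in HT-29 cells. This adaptor subunit read 6.91, 6.82 and 6.63 with elraglusib and 7.62, 7.55 and 7.29 with DMSO. The groups were separate, and it fell by 0.70 ± 0.14 (1.62-fold, limma adjusted p = 0.0141), against differences of -0.27 in HCT-116 and 0.09 in KM12C cells. *FANCM*, the DNA translocase that anchors the complex, differed by -0.55, 0.02 and -0.81 in HCT-116, HT-29 and KM12C cells. *FANCL*, the ubiquitin ligase subunit, differed by -0.17, -0.36 and -0.01. The other core genes, *FANCB*, *FANCC*, *FANCE* and *FANCF*, lay between -0.64 and 0.33 and passed in no line. *FANCI*, the substrate that pairs with FANCD2, read 10.71, 10.42 and 10.41 with elraglusib against 11.06, 11.33 and 11.17 with DMSO in HCT-116 cells. The groups were separate, and -0.67 ± 0.12 missed the threshold (limma adjusted p = 0.0547).

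The nuclease genes and the checkpoint kinase genes held no call in any line. *SLX4*, the scaffold that docks the nucleases, and *MUS81* with *EME1*, which cut branched DNA as a pair, differed by -0.34 to 0.31 in the colorectal lines. *ATM* and *ATR*, the kinases that report double-strand breaks and stalled forks, differed by -0.51 to 0.44. *CHEK1* and *CHEK2*, the kinases they activate, differed by -0.45 to 0.10.

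With an array left out, the calls in HCT-116 cells were lost. Each of the 6 fits without 1 array gave 0 genes that fell and 0 that rose, although the differences stayed between -0.77 and -0.63 for *BRCA1*, -0.83 and -0.72 for *BARD1*, -0.99 and -0.82 for *BRIP1* and 0.53 and 0.58 for *RAD51C*, at limma adjusted p from 0.0654 to 0.173. In HT-29 cells 4 to 9 genes fell in those fits, with 4 without DMSO replicate 2, and *BARD1*, *BRIP1*, *EXO1*, *BLM* and *RAD51C* passed in 6 of 6 fits, *BRCA1* in 5, *FANCG* in 4, *ABRAXAS1* in 3 and *RAD51D* in 1. In KM12C cells 8 fell without DMSO replicate 3, 0 without DMSO replicate 1 and 1 in each of the other 4 fits. *BARD1* passed in 5 of the 6 KM12C fits, *BRIP1* in 1 and *BRCA1*, which had not passed with all arrays, in 1. The share of all genes called in the fits without 1 array was not computed for these 3 lines.

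In NK-92 cells limma called 0 of the 37 genes in either direction, and 0% of all probe sets. At an unadjusted p under 0.05 it had 1 gene higher, *FANCL*, and 0 lower, against 1906 and 1028 of all 67528 probe sets. The methods' t-test had 0 higher and 1 lower. The median difference was -0.02 and the range -0.22 to 0.30. *BRCA1* read 9.82, 9.61 and 9.60 with elraglusib and 9.57, 9.77 and 9.81 with DMSO, a difference of -0.04 ± 0.12. *BARD1* read 11.55, 11.40 and 11.38 against 11.70, 11.60 and 11.58, and *PALB2* 9.33, 9.22 and 9.39 against 9.37, 9.30 and 9.33. The groups overlapped for *BRCA1* and *PALB2*, whereas the treated arrays were all lower for *BARD1*, where the difference of -0.18 ± 0.10 did not pass (limma adjusted p = 1.00).

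In TALL-104 cells limma likewise called 0 genes in either direction, with 0% of all probe sets called. At an unadjusted p under 0.05 limma had 0 genes, against 2474 higher and 806 lower among all probe sets, and the methods' t-test 1. The median difference of -0.40 rested on the array labelled DMSO replicate 2. Without it the median was -0.07, the range -0.63 to 0.26, and limma again called 0 of the 37 genes and 0% of probe sets. By limma *BRCA1*, *BRIP1* and *FANCI* (8.11%) were then lower at an unadjusted p under 0.05, against 1.83% of probe sets and 1.62% of genes. *BRCA1* read 7.64, 7.22 and 7.69 with elraglusib and 7.96, 9.77 and 7.96 with DMSO. Its difference of -1.05 ± 0.51 became -0.44 ± 0.17 without the array that went against its label (limma adjusted p = 0.823 and 0.918), and the treated arrays were lower in both. *BARD1* read 9.19, 9.40 and 9.05 against 9.16, 11.19 and 9.02, and its difference turned from -0.58 to 0.12. *PALB2* read 8.11, 7.83 and 8.28 against 7.98, 9.46 and 8.15, and its difference turned from -0.46 to 0.01.

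In the 3 colorectal lines, whose controls are separate arrays, 6 of the 37 genes had every treated array below every control in each line, against 2.06% of the 22465 genes. They were *BRCA1*, *BARD1*, *BRIP1*, *ABRAXAS1*, *BLM* and *FANCI*. The treated arrays were all above the controls in each line for 1 gene, *RAD51C*, against 1.44% of genes. Across the 37 genes the differences in HCT-116 correlated with those in HT-29 at r = 0.58 and with those in KM12C at r = 0.63, and HT-29 with KM12C at r = 0.59, with rank correlations of 0.46, 0.50 and 0.32. Across all genes the same values of r were 0.17, 0.21 and 0.46. Against NK-92 cells the 37 genes gave r = 0.17 for HCT-116, 0.45 for HT-29 and 0.22 for KM12C, with rank correlations of 0.20, 0.48 and 0.20, and all genes gave r = -0.02, 0.08 and 0.03. Against TALL-104 without its discordant array the 37 genes gave r = 0.41, 0.08 and 0.40 in the same order. Rank correlations there were 0.26, 0.09 and 0.47, and all genes gave r = 0.12, 0.03 and 0.21. These are correlations across genes on shared arrays, in which genes are not independent replicates.

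Genes of the cell cycle were compared as lists. Of 38 measured genes of S phase and the E2F program, 22 fell, 0 rose and 16 did not pass in HT-29 cells, with a median of -0.77. Among them *MCM6*, a subunit of the replicative helicase, fell by 1.95 ± 0.13, *DTL*, which targets the licensing factor *CDT1*, by 1.99 ± 0.16, and *CCNE2*, a cyclin of the G1 to S transition, changed by -2.50 ± 0.21 (limma adjusted p = 7.6e-05, 1.3e-04 and 2.0e-04). In HCT-116 cells 1 fell, *UHRF1*, a reader of hemimethylated DNA, by 0.88 ± 0.12 (limma adjusted p = 0.0250), and the median was -0.17. In KM12C cells 3 fell, *CCNE1* and *CCNE2*, both cyclins, and *E2F8*, a repressive E2F factor, and the median was -0.11. In none of the 3 lines did a gene of this list rise. The mean signal over the list was 9.87 to 9.95 on the elraglusib arrays and 10.52 to 10.87 on the DMSO arrays of HT-29 cells, 10.83 to 10.94 and 11.02 to 11.18 in HCT-116, and 10.25 to 10.44 and 10.44 to 10.62 in KM12C.

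Of 32 measured G2/M genes, HCT-116 cells had 13 that fell, 0 that rose and 19 that passed in neither direction, with a median of -0.57. *AURKB*, *ESPL1* and *NEK2*, which act in mitotic chromosome segregation, fell by 0.99, 0.85 and 1.17 (limma adjusted p = 0.0084, 0.0094 and 0.0122). In HT-29 cells 13 rose, 5 fell and 14 did not pass, with a median of 0.44, and in KM12C cells 3 rose, 4 fell and 25 did not pass, with a median of 0.06. *NUSAP1*, *TOP2A* and *UBE2C*, which act in the spindle, in untangling chromosomes and in destroying mitotic cyclins, fell by 2.46, 2.27 and 2.60 in HT-29 and by 1.59, 1.73 and 1.67 in KM12C cells. The list mean was 11.47 to 11.74 with elraglusib and 12.15 to 12.30 with DMSO in HCT-116 cells, 12.22 to 12.32 and 12.03 to 12.30 in HT-29, and 12.02 to 12.30 and 12.18 to 12.39 in KM12C. In NK-92 cells limma called 0 genes of either list, with medians of -0.03 and 0.08. In TALL-104 it also called 0, with medians of -0.10 and 0.04 without the discordant array. The part of the cell cycle lists in the changes of the repair genes was not tested.

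Other genes of DNA repair were called mostly in HT-29 cells, the line with the most calls over all genes as well. Of all genes 4.06% rose and 5.79% fell in HT-29, 1.09% and 0.677% in HCT-116, and 0.361% and 1.53% in KM12C cells. Of 51 further recombination and Fanconi genes, 0 rose and 1 fell in HCT-116, 3 rose and 9 fell in HT-29, and 0 rose and 3 fell in KM12C cells, with medians of -0.02, -0.07 and -0.07. *TIMELESS*, a fork protection factor, was the HCT-116 gene, at -0.52 (limma adjusted p = 0.0455). In HT-29 cells *CLSPN*, *TOPBP1* and *ETAA1*, which pass on or activate *ATR* signaling, fell by 1.31, 1.14 and 0.94. *TOPBP1* and *ETAA1* also fell in KM12C cells, by 1.30 and 0.66, as did *RNF168*, a ubiquitin ligase at breaks, by 0.69. Of 17 end-joining genes, *POLQ*, the polymerase of microhomology-mediated joining, rose by 1.00 and *PRKDC*, the kinase of the non-homologous pathway, fell by 1.02 in HT-29 cells. Of 5 mismatch repair genes, *MSH6*, a mismatch recognition subunit, fell by 1.20 in HT-29 cells. In HCT-116 and KM12C cells no end-joining or mismatch repair gene passed, with list medians from -0.12 to 0.07.

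**Figure D3:**
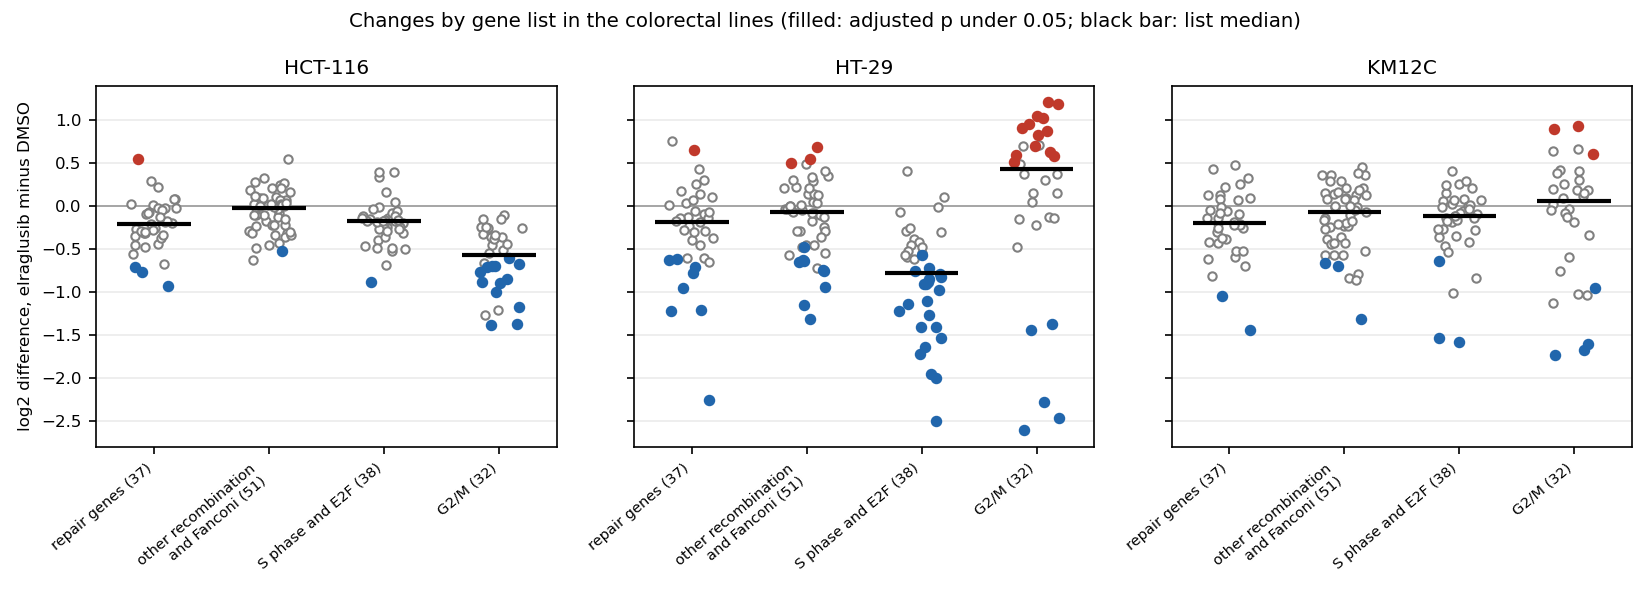
Log2 difference between elraglusib and DMSO arrays (y axis) for every measured gene of 4 lists in the 3 colorectal lines, with list medians as black bars and genes that passed the test filled in blue (lower) or red (higher). The G2/M list lies below 0 in HCT-116 with a median of -0.57 and is split in HT-29, where the S phase and E2F list has a median of -0.77.

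Whether the response differed between lines was tested as the difference of differences in 1 fit over all arrays. For HT-29 against HCT-116 cells, limma called 0 of the 37 genes with all 30 arrays, when it called 4.02% of probe sets and 4.80% of genes. At an unadjusted p under 0.05 it had 6 of them (16.2%), against 14.2% of genes. This fit shares 1 estimate of spread between lines, and the discordant array enters it. Without that array 3 of the 37 passed (8.11%), against 6.20% of probe sets and 8.48% of genes. *BARD1* fell further in HT-29 cells by 1.49 ± 0.20, *EXO1* by 0.89 ± 0.19, and *XRCC2* differed by 1.03 ± 0.26 in the opposite direction (limma adjusted p = 2.2e-05, 0.0030 and 0.0139).

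For HT-29 against KM12C cells the fit over 30 arrays called 0 genes by limma, with 1.86% of probe sets and 2.65% of genes called, and with 10 of the 37 (27.0%) at an unadjusted p under 0.05 against 14.9% of genes. Without the discordant array 7 of the 37 passed (18.9%), against 3.80% of probe sets and 5.97% of genes. *BARD1*, *EXO1*, *FANCG*, *CHEK1*, *RMI2* and *ABRAXAS1* were lower in the HT-29 response by 0.81, 0.91, 0.79, 0.55, 0.52 and 0.47, and *ATM* was higher by 0.80. The signal of *RMI2* lay just above the array medians. Its differences of -0.39 in HT-29 and 0.13 in KM12C became -0.41 and 0.0013 after quantile scaling. For KM12C against HCT-116 cells limma called 0 genes in either fit, when 0.748% and 1.90% of probe sets and 1.36% and 3.46% of genes passed. With and without that array, 8.11% and 27.0% of the repair genes had an unadjusted p under 0.05, against 11.8% and 16.3% of genes. The differences there were -0.67 ± 0.20 for *BARD1*, 0.09 ± 0.21 for *BRCA1* and -0.12 ± 0.21 for *BRIP1* without the discordant array.

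The mean response of the 3 colorectal lines was then set against that of the 2 cytotoxic lines. With all arrays *BARD1* (-1.10 ± 0.29, limma adjusted p = 0.0447) and *FANCL* (-0.38 ± 0.10, limma adjusted p = 0.0489) passed, 5.41% of the repair genes against 2.45% of probe sets and 3.45% of genes. Within single lines *FANCL* passed nowhere, at -0.17, -0.36 and -0.01 in HCT-116, HT-29 and KM12C, 0.30 in NK-92 and 0.09 in TALL-104. Without the discordant array 5 passed (13.5%), against 3.22% of probe sets and 5.06% of genes. These were *BARD1* (-1.45 ± 0.14), *BRIP1* (-0.89 ± 0.14), *BLM* (-0.46 ± 0.12), *FANCL* (-0.41 ± 0.10) and *RAD51C* (0.49 ± 0.12), with limma adjusted p from 5.2e-07 to 0.0312. With NK-92 alone as the cytotoxic line, limma called 0 genes over all arrays (0.526% of probe sets). It had 5 at an unadjusted p under 0.05, for which no share of all genes was computed. Without the discordant array it called 4 (10.8%), against 1.65% of probe sets and 2.64% of genes, namely *BARD1* (-1.30), *BRIP1* (-1.06), *RAD51C* (0.67) and *BRCA1* (-0.66).

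The DMSO arrays gave the levels of these genes without elraglusib, in media that differed between the colorectal and the cytotoxic lines. In colorectal against cytotoxic lines, 9 of the 37 were higher (24.3%) and 10 lower (27.0%) by limma over 15 DMSO arrays, when 13.0% of probe sets and 22.0% of genes were higher and 21.6% and 23.9% lower. Without the discordant array, 14 were higher (37.8%) and 10 lower (27.0%), against 14.8% and 25.2% higher and 25.3% and 27.3% lower. *ATM* was lower in the colorectal lines by 1.87 ± 0.21, and by 2.12 ± 0.12 without that array. It read 7.35 to 7.62 in HCT-116, 7.74 to 8.17 in HT-29 and 7.50 to 8.15 in KM12C cells, 8.92 to 9.31 in NK-92, and 10.71 and 10.54 on the 2 other TALL-104 arrays. The KM12C arrays overlapped those of both other colorectal lines, HCT-116 and HT-29 did not overlap, and NK-92 and TALL-104 stood above all of them in that order.

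*FANCL* ran the other way, higher in the colorectal lines by 1.44 ± 0.08 (2.72-fold, limma adjusted p = 1.7e-09), and by 1.48 ± 0.08 without the discordant array. It read 9.62 to 9.93 in HT-29 and 9.57 to 9.73 in KM12C, which overlapped, 8.39 to 8.65 in HCT-116, and 7.76 to 7.97 on the 6 arrays of NK-92 and TALL-104. *ABRAXAS1* was higher in the colorectal lines by 1.24 ± 0.07, *RAD51AP1* by 1.15 ± 0.11 and *BRIP1* by 0.88 ± 0.18, and *MUS81* was lower by 1.09 ± 0.11. Without that array these became 1.27 ± 0.08, 1.25 ± 0.09, 1.10 ± 0.11 and -0.99 ± 0.09. *BARD1* was lower by 1.27 ± 0.26, or 0.92 ± 0.10 without the discordant array. *XRCC2* and *BRCA1* passed without that array and not with it, at 1.76 ± 0.11 and 0.86 ± 0.09.

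The 2 cytotoxic lines differed widely from each other. In the fit with the discordant array 4 genes, *BARD1*, *MRE11*, *FANCB* and *FANCI*, were higher in NK-92 and 0 lower, when 3.70% of probe sets and 6.14% of genes differed. Without it 25 were higher and 1, *ATM*, lower (70.3% in all), against 20.1% of probe sets and 32.9% of genes. *XRCC2* read 9.59, 9.66 and 9.59 in NK-92 and 6.02 and 6.19 in TALL-104, which put it 3.51 ± 0.17 higher in NK-92 (11.4-fold, limma adjusted p = 1.2e-09). *BARD1*, *FANCB*, *CHEK1*, *RAD51C* and *EXO1* were higher in NK-92 by 2.54, 2.42, 2.08, 2.03 and 2.01. The mean signal of the S phase and E2F list was 11.12 to 11.22 on the NK-92 DMSO arrays and 9.54 and 9.48 on the 2 TALL-104 arrays, and that of the G2/M list 11.82 to 11.98 against 10.52 and 10.49. Their part in the difference of the repair genes was not tested.

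Among the colorectal lines, 15 genes differed between HCT-116 and HT-29 cells (40.5%, against 13.9% of probe sets and 23.7% of genes), 6 between HCT-116 and KM12C (16.2%, against 14.8% and 23.3%) and 8 between HT-29 and KM12C (21.6%, against 13.3% and 22.2%). The latter pair of shares is below or near that of all genes. Without the discordant array, which is in none of these lines but in the shared spread, 23, 19 and 14 genes differed (62.2%, 51.4% and 37.8%), against 19.3%, 20.0% and 18.4% of probe sets and 33.0%, 31.8% and 31.0% of genes. The standard errors and adjusted p-values of single genes below are from the limma fit that keeps that array in the shared spread. *MRE11* read 7.70, 7.81 and 7.73 in HCT-116, 9.29, 9.34 and 9.15 in KM12C and 10.58, 10.89 and 10.64 in HT-29 cells. It was 2.96 ± 0.18 lower in HCT-116 than in HT-29 (7.76-fold, limma adjusted p = 4.1e-08), and the 3 lines did not overlap. *FANCF*, an adaptor of the core complex, read 6.60, 7.14 and 6.78 in HCT-116 against 9.03, 9.38 and 8.59 in HT-29 cells, and was 2.16 ± 0.22 lower. *RAD51C* ran the other way, at 11.36, 11.42 and 11.34 in HCT-116, 10.21, 10.11 and 10.29 in KM12C and 8.59, 8.76 and 8.48 in HT-29 cells. It was 2.76 ± 0.38 higher in HCT-116 than in HT-29 cells (6.79-fold, limma adjusted p = 1.2e-04). *RAD50* and *CHEK1* were higher in HT-29 than in KM12C cells by 1.83 ± 0.14 and 1.56 ± 0.40.

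**Figure D4:**
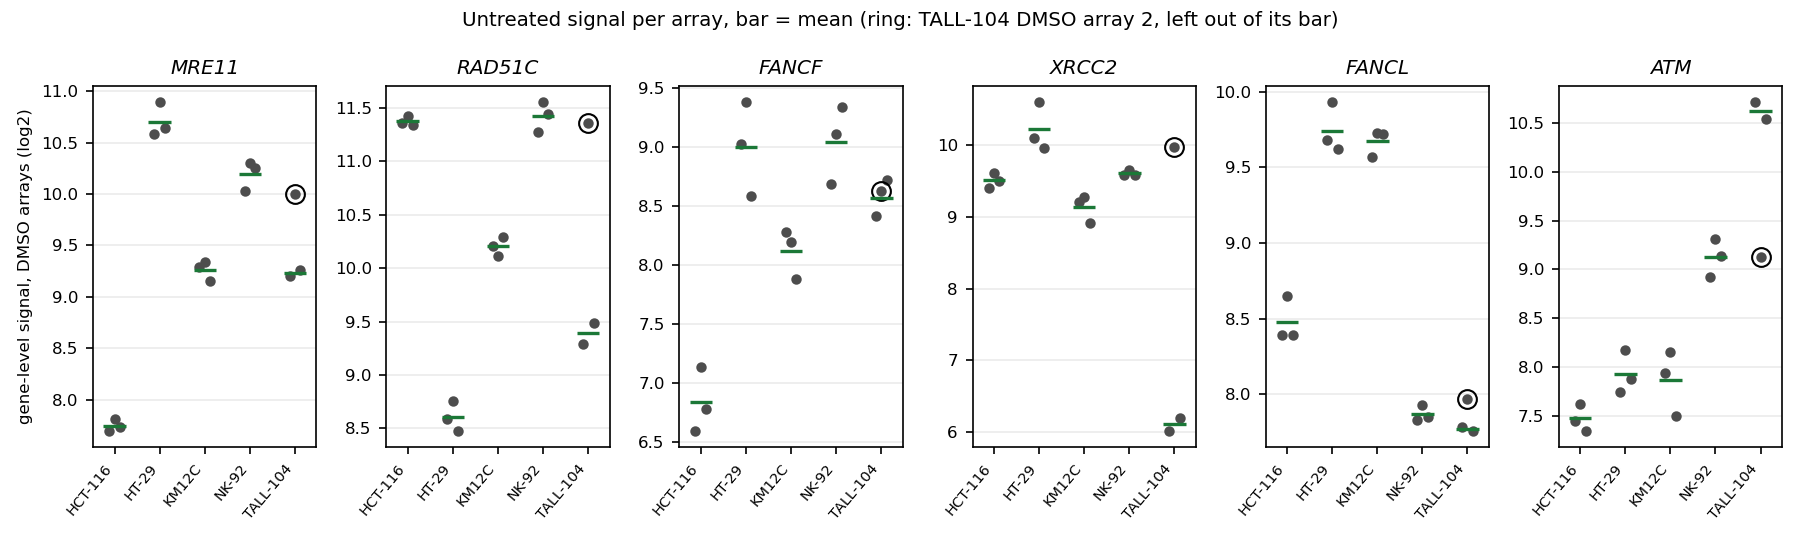
Log2 signal on the DMSO arrays (y axis) of MRE11, RAD51C, FANCF, XRCC2, FANCL and ATM in the 5 cell lines (x axis), 1 point per array and the line mean as a bar. MRE11 and FANCF are lowest in HCT-116, RAD51C is lowest in HT-29, XRCC2 is lowest on the 2 TALL-104 arrays outside the ring, and ATM is highest there.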

How the data were processed

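RNA from 5 cell lines was hybridized to Human Transcriptome Array 2.0 arrays. The authors deposited log2 gene-level signals from the Transcriptome Analysis Console for 67528 probe sets on 30 arrays, and its version, background correction and normalization were not given in the sources used here. By the methods RNA was isolated in sets of 6 samples and arrays were run in 2 randomized batches, and no batch is given per array, so none could be fitted. Of the probe sets, 23781 have 1 gene symbol, 1543 several and 42204 none listed. For each gene the single-symbol probe set with the highest mean was used (22465 genes), and each measured repair gene had 1 such probe set.

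The deposited values were used without rescaling or a filter. Elraglusib was compared with DMSO within each line by lmFit and eBayes (limma 3.58.1, R 4.3.3), responses were compared in a fit over 30 arrays and untreated levels over 15, and p-values were adjusted by Benjamini-Hochberg over all probe sets, with calls at 0.05. The scripts were tested on simulated data. No 2 arrays shared more than 2.79% of identical values. Alternatives were quantile scaling, a filter on dim probe sets (below the 40th percentile), an eBayes fit with trend and robust, a fit over all arrays, the replicate number as a block, 1 probe set per gene fitted alone, the methods' paired t-test (named in the general statistics and not for the arrays, and paired here by replicate number) and each array left out.

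The 42 genes and the comparison lists (55 other recombination and Fanconi genes, 18 of end joining, 7 of mismatch repair, 40 of S phase and E2F, 33 of G2/M, and markers of 6 cell types) were chosen with earlier results of these data known. Per-array values are given for up to 8 called genes per line by smallest p and for *BRCA1*, *BARD1* and *PALB2*, and up to 3 genes per comparison list and line are named by smallest p. Other genes named without a passed test were chosen after their values were seen. Promoter windows are RefSeq's, build GRCh38.p14.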

Additional observations from a re-analysis of the deposited data

Results flagged for a closer look

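A test of the difference between responses picked out the following genes, each as log2 values for elraglusib minus DMSO. With all 30 arrays, the colorectal response lay below the cytotoxic one for *BARD1* (-1.10) and *FANCL* (-0.38). Without the array labelled TALL-104 DMSO replicate 2, the same comparison gave *BARD1* (-1.45), *BRIP1* (-0.89), *BLM* (-0.46), *FANCL* (-0.41) and *RAD51C* (0.49). Also without it, and with 0 genes passing when it was kept, HT-29 minus HCT-116 gave *BARD1* (-1.49), *EXO1* (-0.89) and *XRCC2* (1.03). HT-29 minus KM12C, again with 0 genes passing when the array was kept, gave *EXO1* (-0.91), *BARD1* (-0.81), *FANCG* (-0.79), *CHEK1* (-0.55), *RMI2* (-0.52), *ABRAXAS1* (-0.47) and *ATM* (0.80). *FANCL* passed within no single line, and its difference was 0.30 in NK-92 and -0.36 to -0.01 in the colorectal lines. The signal of *RMI2* lay just above the array medians. No explanation was tested.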

How the results depend on the processing

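Counts of repair genes called depended on the processing in each colorectal line. In HCT-116, where 3 fell and 1 rose, quantile scaling and the dim filter gave 5 falls each, genes fitted alone 6, the fit over all arrays 1 fall and 0 rises, and the methods' paired t-test after Benjamini-Hochberg 0 and 0 (3 lower and 0 higher at the methods' thresholds, against 8 and 1 in HT-29 and 5 and 0 in KM12C). In HT-29 (8 fell, 1 rose) the rises were 2 under quantile scaling, the dim filter and genes alone and 0 in the fit over all arrays, and the paired t-test gave 0 and 0. In KM12C (2 fell, 0 rose) genes alone gave 4 falls and 1 rise, and the paired t-test 0 falls. The responses that differ went to 2 (quantile) and 1 (dim filter) for HT-29 minus KM12C, 1 (dim filter) for HT-29 minus HCT-116, and 1 (trend and robust) or 0 (NK-92 alone) for colorectal minus cytotoxic lines. *PALB2* in KM12C changed sign under quantile scaling, at 0.024. The replicate block gave 0 falls and 0 rises in HCT-116, 1 gene for HT-29 minus HCT-116 and 1 for colorectal minus cytotoxic lines, and changed no other call count by over 1.5 times. Same-numbered arrays shared only a number, since their deviations correlated at -0.48 to 0.21 and in no line were all above 0.1.

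With single arrays left out, HCT-116 gave 0 to 0 falls and 0 to 0 rises, HT-29 4 to 9 and 1 to 2, and KM12C 0 to 8 and 0 to 1. The share of all genes called in those fits was not computed. Responses that differ ran from 0 to 3 for HT-29 minus HCT-116, 0 to 7 for HT-29 minus KM12C and 0 to 5 for colorectal minus cytotoxic lines, each highest without TALL-104 DMSO replicate 2. The untreated pairs and other results without that array, and the comparison with NK-92 alone, were added after seeing the data. Untreated counts ran from 8 to 14 higher and 9 to 13 lower. Ranges that crossed 0 were *PALB2* in HT-29 (-0.14 to 0.0017), *PALB2* (-0.058 to 0.027) and *BRCA1* (-0.11 to 0.0067) in NK-92, and *BARD1* (-0.96 to 0.12) and *PALB2* (-0.73 to 0.0083) in TALL-104. A second probe set per gene could not be tried, since no measured gene had one. The cause of these changes was not tested. With 3 arrays per group, a difference that did not pass is not shown to be absent.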
